A study of Homo sapiens with 16 samples.

Results

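The 10 genes described here were chosen from a fixed list of angiogenic ligands (VEGFA, VEGFB, VEGFC, ANGPT1 and ANGPT2), their receptors (FLT1, KDR and TEK) and endothelial junction genes (PECAM1 and CDH5). The rule used no measured value, but the list was drawn up with earlier results of these data known. All 10 were present in each table, which listed 20121 genes in set 1, 27650 in set 2, 21093 in the TNFα set and 36601 in the single-cell matrices. All samples were kidney organoids grown from UM77-2, which is 1 human embryonic stem cell (hESC) line. Bulk RNA came from isolated spheroids at culture day 21, 25 and 29 (D21, D25, D29), with 1 library a day in set 1 and 2 libraries a day in set 2, and from a TNFα set of D25 organoids with 1 library each of vehicle (VC) and of 5 ng/ml TNFα, an inflammatory cytokine, at 24 h and 48 h. The 2 single-cell libraries were whole wells collected at D24, after 24 h without (Ctrl) or with 5 ng/ml TNFα. Nothing in the labels says that the paired libraries of set 2 came from separate cultures, so its p-values measure only the spread between these libraries, which may be technical.

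VEGF-A is the main growth factor for endothelial cells and acts through KDR (VEGFR2), whereas FLT1 (VEGFR1) binds VEGF-A tightly, signals weakly and in its soluble form traps the ligand. In the glomerulus, podocytes make VEGF-A for the capillary endothelium on the other side of the filtration barrier. Angiopoietin-1 stabilises vessels through the receptor TIE2, which is encoded by TEK, and angiopoietin-2 competes with it on the same receptor and is linked to vessel destabilisation in inflammation. PECAM1 (CD31) and CDH5 (VE-cadherin) hold endothelial cells together and are standard markers of that cell type. Organoids of this kind grow without blood flow.

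Bulk values below are read counts scaled to library size (CPM) taken back from the deposited log2(CPM + 1) values, and libraries held between 19073609 and 59246286 reads. In bulk RNA, fewer cells of a type and less RNA per cell cannot be told apart. A gene was called where the adjusted p of the limma model was below 0.05. TNFα exposure was visible in the libraries labelled TNF, where all 6 genes of a response check list were called higher, with log2 differences from 2.47 (NFKBIA) to 4.25 (ICAM1). In all 13 bulk libraries the leukocyte markers in the tables summed to between 0.527 and 1.48 CPM. Of 6 such markers, the table of set 1 held 1, that of set 2 held 4 and that of the TNFα set 2, so the sums cover different genes.

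Levels between genes were compared per kilobase of the canonical transcript, as CPM per kb. In the D25 libraries of set 2, VEGFA stood far above the rest at 305 ± 1.76 CPM per kb (SD, n = 2) and VEGFB followed at 26.0 ± 0.0506. ANGPT1 came next at 8.07 ± 0.870 CPM per kb and KDR at 4.85 ± 0.452. CDH5 lay at 2.24 ± 0.183, PECAM1 at 1.65 ± 0.0713, VEGFC at 1.62 ± 0.0486, FLT1 at 1.09 ± 0.0239, ANGPT2 at 0.988 ± 0.0667 and TEK at 0.386 ± 0.0643. PECAM1 and VEGFC, neighbours in this order, overlapped between libraries, and the other neighbours did not. A ligand was thus the most abundant of the 10 and an endothelial receptor the least, both on the scale of level per length.

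**Figure D1:**
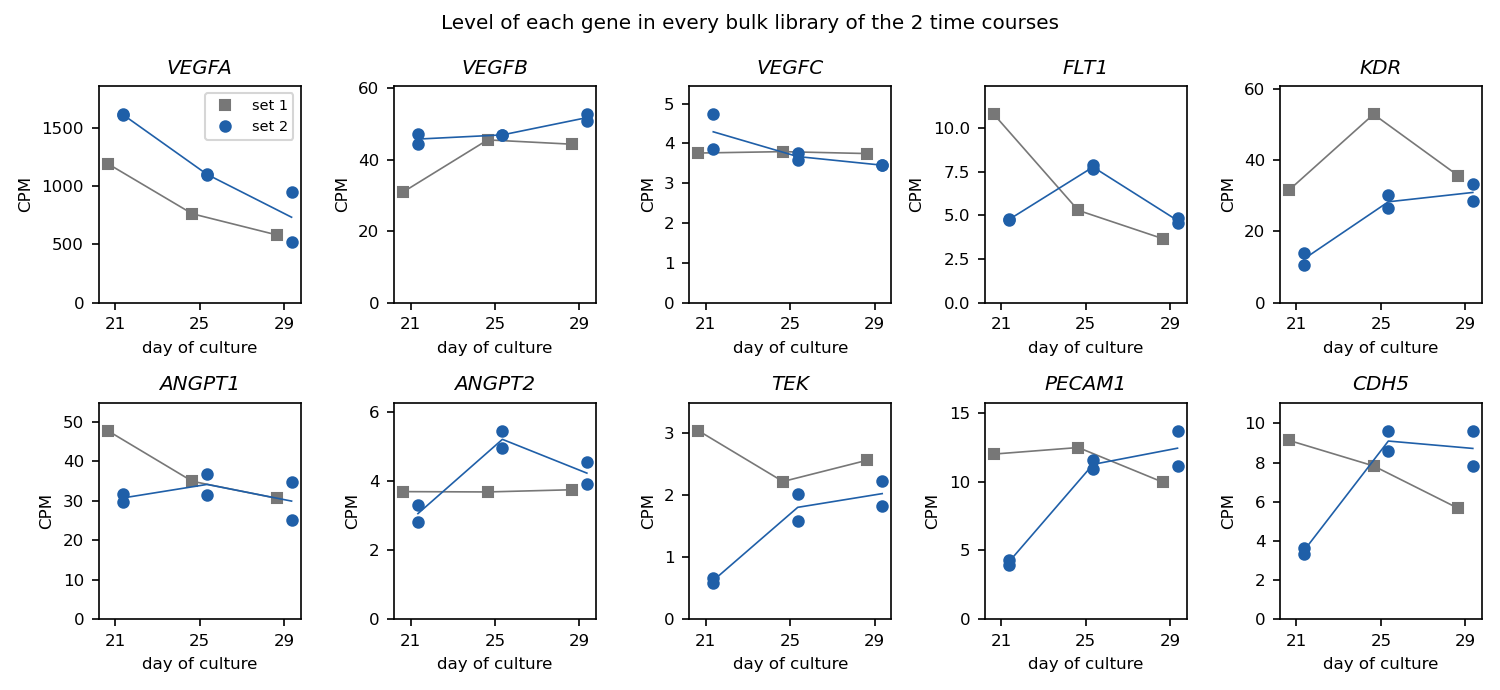
Level of each of the 10 genes in CPM (vertical axis, starting at 0) by day of culture (horizontal axis), with 1 point for each bulk library of set 1 (grey squares) and set 2 (blue circles) and lines through the mean of each day. VEGFA declines from D21 to D29 in both sets, whereas PECAM1, CDH5, KDR and TEK climb in set 2 from values at D21 that lie below those of set 1.

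VEGFA (chr6:43770184-43786487, plus strand, GRCh38) fell with culture time. In set 2 it measured 1613 and 1615 CPM at D21, 1095 and 1104 at D25, and 948 and 517 at D29. All 4 later libraries lay below both D21 libraries, and the D29 libraries differed from each other far more than the earlier pairs did. The D29 level was lower than that of D21 by a log2 difference of -1.20 (SE 0.239, adjusted p = 0.0111). The size rested on 1 library, since without replicate 2 of D29 the log2 difference was -0.77, and the call was lost without either D21 library (highest adjusted p = 0.0776). At D25 the log2 difference from D21 was -0.55 (adjusted p = 0.264), which passed the threshold when either D29 library was left out (adjusted p = 0.00578 and 0.00662). In set 1 VEGFA measured 1191, 762 and 580 CPM at D21, D25 and D29, again lowest on the last day. Exons of VEGFA share 188 bp with a lncRNA gene on the opposite strand.

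Podocyte markers moved beside VEGFA. The summed level of 10 podocyte marker genes in set 2 was 11881 and 12458 CPM at D21, 9944 and 10151 at D25, and 8405 and 4012 at D29, and the D29 library with the low VEGFA value was the one with the low podocyte sum. VEGFA equalled 13.6% and 13.0% of that sum at D21, 11.01% and 10.87% at D25, and 11.3% and 12.9% at D29, so its level relative to podocyte markers varied much less than its CPM. Of the 10 podocyte markers, 0 were called at D25 by limma, edgeR or DESeq2 (1 had an unadjusted p under 0.05 in limma). At D29 limma called 6 lower, against 8.33% of all genes. The part of podocyte RNA in the VEGFA values was not tested.

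The other ligands differed less between days in set 2, and VEGFB and ANGPT1 moved more in set 1. VEGFB (chr11:64234584-64239264, plus strand), a ligand of FLT1, measured 44.2 and 47.2 CPM at D21, 47.0 and 46.8 at D25, and 50.8 and 52.7 at D29 in set 2, with a log2 difference of 0.17 at D29 (adjusted p = 0.131), and 30.9, 45.5 and 44.3 CPM in set 1, where the later days stood at log2 differences of 0.54 and 0.50 from D21. VEGFC (chr4:176683538-176792922, minus strand), best known for lymphatic growth, lay between 3.45 and 4.73 CPM in all 6 libraries of set 2 and between 3.74 and 3.79 CPM in set 1. Neither gene was called on any day. ANGPT1, on chromosome 8, measured 31.7 and 29.7 CPM at D21, 36.7 and 31.5 at D25, and 34.7 and 25.1 at D29 in set 2, so that the days overlapped, and 47.7, 34.9 and 30.6 CPM in set 1, at log2 differences of -0.44 and -0.62 from D21.

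ANGPT2, also on chromosome 8, was low and reached its highest values at D25. It measured 3.30 and 2.81 CPM at D21, 4.95 and 5.45 at D25, and 3.91 and 4.54 at D29 in set 2, and the 3 days did not overlap. The D25 difference from D21 was a log2 value of 0.62 (adjusted p = 0.0712), on the other side of the threshold in the edgeR fit to the recovered reads (adjusted p = 0.0269). In set 1 it stayed at 3.69, 3.68 and 3.74 CPM. Exons of ANGPT2 share 658 bp with the MCPH1 gene on the opposite strand, and the sources used here do not state whether counting used strand, so reads of the 2 genes may be mixed. The ratio of ANGPT2 to ANGPT1 per kb was 0.0836 and 0.0759 at D21, 0.108 and 0.139 at D25, and 0.0906 and 0.145 at D29.

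The receptors and junction genes moved up between D21 and D25 in set 2. Of the 10 listed genes, limma called 5 higher at D25 than at D21 and 0 lower (6 had an unadjusted p under 0.05, and edgeR called 6 and DESeq2 5), against 3.39% higher and 1.99% lower among all 27650 genes tested. The median log2 difference of the 10 was 0.61, beside -0.00 for all genes. The 5 were KDR, FLT1, TEK, PECAM1 and CDH5, that is, the 3 receptors and both junction genes. The count rested on every D21 and D25 library, since 2 genes were called without replicate 1 or 2 of D21, 3 without replicate 1 of D25 and 1 without replicate 2 of D25.

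The stretches just upstream of the start sites of these 3 receptors are shown because the genes were called in the same direction at D25 when all libraries were used. They come from the RefSeq promoter table on GRCh38.p14, which held an entry for 5 of the 10 genes (FLT1, KDR, TEK, VEGFB and VEGFC, and not VEGFA, ANGPT1, ANGPT2, PECAM1 or CDH5), and each was cut to the bases before the annotated start. Capitals mark the letters GGAA or TTCC, the core of sites for ETS factors read on both strands. FLT1 is chr13:28495146-28495378 on the minus strand, KDR is chr4:55125596-55125845 on the minus strand and TEK is chr9:27108975-27109140 on the plus strand, each printed 5′ to 3′.
FLT1: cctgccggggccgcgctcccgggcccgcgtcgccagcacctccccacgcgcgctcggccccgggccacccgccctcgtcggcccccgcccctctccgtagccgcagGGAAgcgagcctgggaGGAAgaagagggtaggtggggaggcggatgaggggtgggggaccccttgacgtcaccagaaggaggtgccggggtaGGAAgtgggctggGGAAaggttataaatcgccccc
KDR: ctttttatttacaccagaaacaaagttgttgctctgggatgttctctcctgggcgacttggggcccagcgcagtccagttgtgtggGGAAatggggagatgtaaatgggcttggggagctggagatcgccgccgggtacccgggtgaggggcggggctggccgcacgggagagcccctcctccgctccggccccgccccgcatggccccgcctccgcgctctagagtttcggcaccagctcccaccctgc
TEK: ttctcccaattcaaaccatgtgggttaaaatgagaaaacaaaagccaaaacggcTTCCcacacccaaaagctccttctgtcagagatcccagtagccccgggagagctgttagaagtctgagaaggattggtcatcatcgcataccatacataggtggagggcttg
The FLT1 stretch of 233 bases held 4 matches, where 29.7% of 27305 promoters cut to the same length held as many and 91.5% held at least 1. The KDR stretch of 250 bases and the TEK stretch of 166 bases held 1 match each, which 92.8% and 83.5% of promoters at those lengths also reached. A match is only a run of letters in the window.

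KDR (chr4:55078481-55125595, minus strand), the main signalling receptor for VEGF-A, showed one of the larger differences. In set 2 it measured 13.9 and 10.5 CPM at D21, 26.4 and 30.1 at D25, and 33.4 and 28.4 at D29. Both later days lay above D21 in every library. The log2 difference was 1.16 at D25 (SE 0.145, adjusted p = 0.00546) and 1.28 at D29 (SE 0.145, adjusted p = 0.000892), the former not passing without replicate 2 of D25 (adjusted p = 0.0679). In set 1 KDR measured 31.6, 52.8 and 35.6 CPM, highest at D25.

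FLT1 (chr13:28300346-28495145, minus strand) peaked at D25 and returned. Its values in set 2 were 4.73 and 4.77 CPM at D21, 7.89 and 7.65 at D25, and 4.84 and 4.57 at D29, so D25 stood alone and the outer days overlapped. The log2 difference from D21 was 0.61 at D25 (SE 0.136, adjusted p = 0.0444) and -0.01 at D29 (adjusted p = 0.972). The D25 call was lost without any one of the 4 libraries of those days (highest adjusted p = 0.226). In set 1 FLT1 went the other way at D25, from 10.8 CPM to 5.29 and then 3.67 at D29. The ratio of FLT1 to KDR per kb in set 2 was 0.277 and 0.372 at D21, 0.245 and 0.208 at D25, and 0.119 and 0.132 at D29, lowest on the last day in both libraries, and in set 1 it was 0.280, 0.0820 and 0.0843.

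TEK (chr9:27109141-27230174, plus strand), the angiopoietin receptor, was the lowest gene of the list in set 2. It measured 0.576 and 0.671 CPM at D21, 2.02 and 1.59 at D25, and 2.23 and 1.83 at D29 in set 2. Both later days lay above D21 in every library, on 12 to 67 reads a library. The log2 difference, damped by the added 1 at such levels, was 0.79 at D25 (adjusted p = 0.0261) and 0.90 at D29 (adjusted p = 0.00521), against 1.55 and 1.74 in the edgeR fit to the reads. The D25 call was lost without any one of the 4 libraries of those days (highest adjusted p = 0.162). In set 1 TEK measured 3.04, 2.22 and 2.57 CPM, with the highest value at D21.

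PECAM1 (chr17:64319415-64413776, minus strand) and CDH5 (chr16:66366690-66404784, plus strand) moved much alike. PECAM1 measured 3.94 and 4.33 CPM at D21, 11.6 and 10.9 at D25, and 11.2 and 13.7 at D29 in set 2. Its log2 difference from D21 was 1.26 at D25 (SE 0.141, adjusted p = 0.00342) and 1.38 at D29 (SE 0.141, adjusted p = 0.000579). CDH5 measured 3.34 and 3.64 CPM at D21, 8.57 and 9.62 at D25, and 7.84 and 9.60 at D29, with log2 differences of 1.17 (adjusted p = 0.00605) and 1.11 (adjusted p = 0.00202). For both genes the 2 later days overlapped each other and lay apart from D21. The CDH5 call at D25 was lost without replicate 1 or 2 of D21 or replicate 2 of D25 (adjusted p from 0.0508 to 0.0735). In set 1 neither followed: PECAM1 measured 12.02, 12.5 and 9.98 CPM and CDH5 9.13, 7.83 and 5.66.

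At D29 against D21, 4 of the 10 genes were called higher (KDR, TEK, PECAM1 and CDH5) and 1 lower (VEGFA), against 10.0% and 8.33% of all genes. The median log2 difference of the 10 was 0.27, beside -0.02 for all genes. Between D25 and D29, 0 of the 10 were called, against 1.25% higher and 0.825% lower among all genes, and 2 had an unadjusted p under 0.05 (VEGFA and FLT1). FLT1 lay at a log2 difference of -0.62 (adjusted p = 0.0674), which the edgeR fit (adjusted p = 0.0235) and the DESeq2 fit (adjusted p = 0.0387) called lower as the 1 listed gene in each, and VEGFA was called lower without replicate 1 of D29 (log2 difference -1.09). Set 1 has no replicates and gave no test, but 7 of the 10 genes were lower at D29 than at D21 there, against 50.5% of all its genes. Of the 7, VEGFC (log2 -0.00412) was close to no difference. Centring each library on its median changed the balance over all genes, from 937 higher and 549 lower calls to 971 and 1281 at D25, and from 2778 and 2303 to 2408 and 4667 at D29, while the number of listed genes called stayed at 5 in each.

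**Figure D2:**
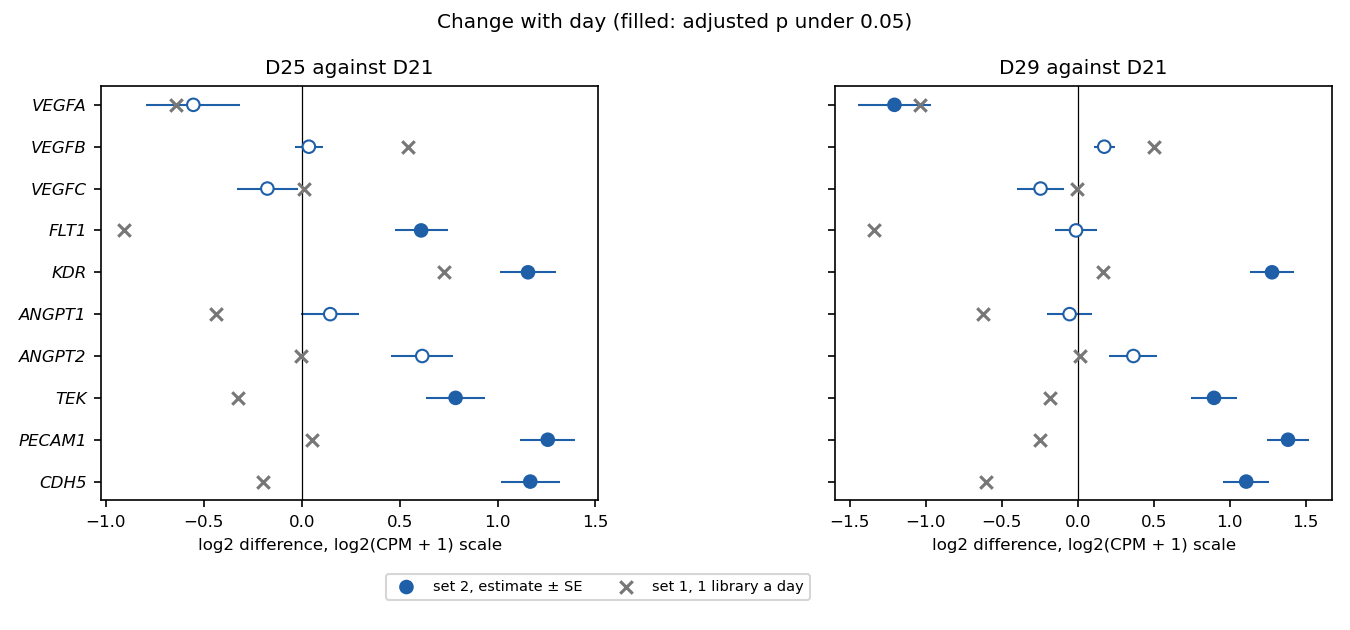
Log2 differences of the 10 genes from D21 at D25 and at D29, on the log2(CPM + 1) scale, with the limma estimate and its standard error for set 2 (blue circles, filled where called) and the difference of single libraries for set 1 (grey crosses). Receptors and junction genes lie above 0 in set 2 at D25, and in set 1 FLT1, TEK and CDH5 lie below it.

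Neighbouring genes of the pathways did not rise as a block. Among 19 of 20 endothelial markers that could be tested, 4 were called higher and 3 lower at D25, and 5 higher and 4 lower at D29. Over all 27650 genes limma called 3.39% higher and 1.99% lower at D25, and 10.0% and 8.33% at D29. CD34, a surface marker of endothelial and progenitor cells, was higher (log2 1.11 at D25 and 1.38 at D29), as was ROBO4, an endothelial guidance receptor, at D25 (0.89), whereas the tight junction gene CLDN5 was lower (-1.13 and -2.28) and PLVAP, of endothelial diaphragms, was lower at D29 (-1.21). In the Ctrl single-cell library 73.9% of CLDN5 UMIs and 35.1% of PLVAP UMIs lay in podocyte-like cells, which held 14.1% of all UMIs. Between D25 and D29, 2 of the 19 were called, both lower (CLDN5 and ESAM, the latter at log2 -0.48), against 0.825% of all genes.

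Of the 5 other VEGF family genes, limma called 5 lower at D29, and edgeR and DESeq2 each called 4. Among all genes limma called 3.39% higher and 1.99% lower at D25, and 10.0% and 8.33% at D29. The lymphatic ligand VEGFD changed by a log2 of -0.96, its receptor FLT4 by -0.64 and the co-receptor NRP1 by -0.45, while at D25 only NRP2 was called (-0.27). VEGFD lay at 1.64 and 2.23 CPM at D21 and 0.446 and 0.560 at D29, where the added 1 damps log2 differences. Of 6 other angiopoietin and TIE genes, 2 were called higher and 2 lower at D29, with the matrix protein SVEP1 at 2.15, ANGPTL2 at 1.18 and ANGPTL4 at -0.90. These same 3 genes were called at D25, at 1.67, 0.82 and -0.73. Of 13 other angiogenic signals, 4 were called higher and 2 lower at each of the 2 days. At D29 the chemokine CXCL12 stood at 1.86, the apelin receptor APLNR at 1.47 and adrenomedullin (ADM) at -0.92. The guidance factor SEMA3A was the 1 gene of that list called between D25 and D29 (0.64), against 1.25% higher among all genes.

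Many hypoxia target genes, a group to which VEGFA also belongs, were called lower on the later days. Of 12 others, 5 were called lower and 0 higher at D25, and 8 lower and 1 higher at D29. The shares of all genes were 1.99% lower and 3.39% higher at D25, and 8.33% lower and 10.0% higher at D29. The median log2 difference of the 12 was -0.48 and -0.78, beside -0.00 and -0.02 over all genes. At D29 the glycolytic regulator PFKFB4 stood at -1.18, the mitophagy gene BNIP3 at -1.17 and the glucose transporter SLC2A1 at -1.13. Between D25 and D29, limma called 0 of 12, with 4 at an unadjusted p under 0.05, while edgeR and DESeq2 each called 1 higher and 2 lower. ADM belongs to this list and to the list of angiogenic signals.

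Markers of other cell types changed alongside. The summed stromal markers of set 2 went from 3384 and 2768 CPM at D21 to 10814 and 13495 at D29, and in set 1 from 5642 to 14960. The sum of 12 endothelial markers, of which 11 were in the table, went from 64.4 and 68.5 CPM at D21 to 60.9 and 64.3 at D25 and 52.4 and 53.9 at D29, so the summed list was lower at D29. That sum was mostly 1 gene, ESAM, at 38.5 and 40.5 CPM at D21 and 19.6 and 18.3 at D29. In the Ctrl single-cell library ESAM stood at 86.7 CPM in unnamed cluster 4, which held 0.688% of all UMIs. It stood at 41.6 CPM in proximal tubule-like cells, which held 17.8%, so the sum does not follow endothelial cells alone. Gene by gene, 3 of the 11 were called higher and 1 lower at D25 and 4 higher and 2 lower at D29. Their median log2 differences were 0.46 and 0.39. Over all genes 3.39% were called higher and 1.99% lower at D25, and 10.0% and 8.33% at D29. The part of these cell types in the results of the 10 genes was not tested.

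Most of the 10 genes were lower with TNFα in bulk organoids. Of the 10, 6 were called lower and 1 higher, against 10.8% and 8.42% of 21093 genes. The median log2 difference was -0.41, beside -0.03 for all genes. Across the 2 times, which served as the replicates of this comparison, 8 genes were lower at both and 2 higher at both, where 39.8% of all genes were lower at both and 28.6% higher at both. Of the 8, VEGFB (log2 -0.00991) and TEK (-0.0271) were close to no difference at 48 h. The p-values of this comparison rest on how the difference varied between the 2 times. They hold no spread between cultures treated alike. The split of calls over all genes, 1776 higher and 2285 lower, became 2322 and 2133 in edgeR and 1198 and 970 in DESeq2. With DESeq2 only VEGFA and ANGPT1 of the 10 were called, and without a term for time only ANGPT1 was.

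VEGFA went from 1135 to 925 CPM at 24 h and from 978 to 778 at 48 h, a log2 difference of -0.31 (SE 0.0639, adjusted p = 0.00173). Both treated libraries lay below both vehicle libraries. The podocyte marker sum was lower as well, going from 7439 to 4511 CPM at 24 h and from 6935 to 3360 at 48 h, with 10 of 10 markers called lower, and VEGFA equalled 15.3% and 14.1% of that sum in VC and 20.5% and 23.2% with TNFα. VEGFB differed little, at 51.2 and 48.1 CPM at 24 h and 54.6 and 54.2 at 48 h (log2 -0.05, adjusted p = 0.702). VEGFC measured 4.12 in VC and 5.47 with TNFα at 24 h, and 6.34 and 7.60 at 48 h, a log2 difference of 0.28 (adjusted p = 0.104) that edgeR called (adjusted p = 0.0399).

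The angiopoietins moved in opposite directions. ANGPT1 went from 35.0 to 25.2 CPM at 24 h and from 35.6 to 20.1 at 48 h, the only one of the 10 called in every alternative (log2 -0.63, SE 0.0893, adjusted p = 5.22e-05). ANGPT2 went from 2.72 to 5.72 CPM at 24 h and from 3.87 to 4.94 at 48 h (log2 0.57, SE 0.138, adjusted p = 0.00658, and 0.0682 in DESeq2). The ratio of ANGPT2 to ANGPT1 per kb was 0.0623 and 0.0874 in VC and 0.182 and 0.198 with TNFα, so the treated libraries did not overlap the vehicle libraries. Their receptor TEK lay at 1.11, 0.66, 1.11 and 1.07 CPM in VC and TNFα at 24 h and then at 48 h (log2 -0.19, adjusted p = 0.317).

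The VEGF receptors and junction genes were lower with TNFα. FLT1 went from 3.21 to 1.59 CPM at 24 h and from 2.21 to 1.05 at 48 h (log2 -0.67, adjusted p = 0.000442, and -1.04 without the added 1). KDR went from 11.9 to 9.98 CPM at 24 h and from 17.6 to 9.85 at 48 h (log2 -0.51, adjusted p = 0.00534). In both genes every treated library lay below every vehicle library. PECAM1 went from 3.97 to 3.09 and from 4.41 to 2.00 CPM (log2 -0.57, adjusted p = 0.00729), and CDH5 from 4.26 to 3.26 and from 3.95 to 1.44 CPM (log2 -0.66, adjusted p = 0.00374). DESeq2 did not call these 4 genes (adjusted p = 0.0596 for FLT1, 0.0521 for KDR, 0.153 for PECAM1 and 0.0790 for CDH5). For KDR, PECAM1 and CDH5 the difference at 48 h (log2 -0.78, -0.85 and -1.02) exceeded that at 24 h (-0.24, -0.28 and -0.30), a pattern of 1 library pair at each time that was not tested.

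**Figure D3:**
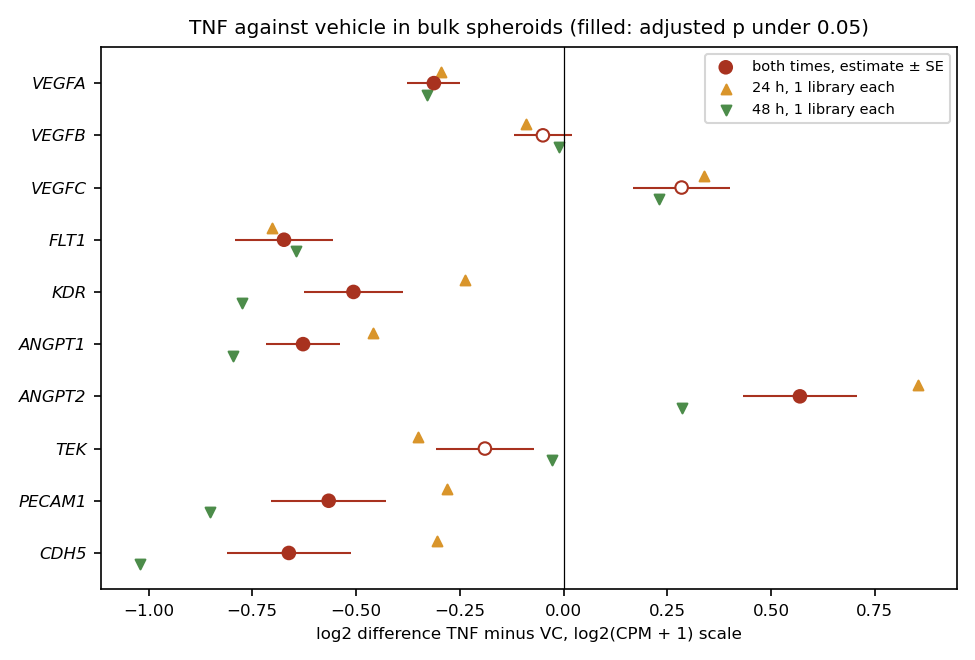
Log2 differences of TNFα against vehicle for the 10 genes at 24 h and 48 h, each from 1 library pair (triangles), with the limma estimate and its standard error over both times (circles, filled where called), on the log2(CPM + 1) scale. ANGPT2 and VEGFC lie above 0 at both times, and the other 8 lie below it at both.

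Related lists differed in how many of their genes limma called with TNFα, against 8.42% higher and 10.8% lower among all genes. Of 17 endothelial markers tested, limma called 0 higher and 3 lower, namely CLDN5 (log2 -0.67), CD34 (-0.41) and ESAM (-0.25). In limma 6 had an unadjusted p under 0.05. With edgeR 1 was called higher and 3 lower, and with DESeq2 0 in either direction. The sum of the 12 endothelial markers, of which 10 were in the table, was 86.2 and 81.7 CPM in VC and 74.0 and 69.7 with TNFα. ESAM made up 63.0 and 56.8 CPM of that sum in VC and 50.7 and 49.7 with TNFα. In the TNF single-cell library ESAM was highest in proximal tubule-like cells (31.3 CPM) and next in unnamed cluster 4 (23.8 CPM). Of the 5 other VEGF family genes only FLT4 was called (-0.58). Among 6 other angiopoietin and TIE genes 3 were higher and 1 lower (1 and 0 in DESeq2), with PTPRB, a phosphatase that acts on TIE2, at 0.65, ANGPT4 at 0.52 and ANGPTL4 at -0.56. ANGPT4 lay at 0.378 and 0.330 CPM in VC and 0.752 and 1.16 with TNFα, where the added 1 damps log2 differences. PTPRB, at 1.81 and 2.03 CPM in VC, and CD34, at 1.65 and 2.21, were low as well. Of 13 other angiogenic signals 5 were higher and 3 lower (2 and 2 in DESeq2), led by the ligand APLN at -0.69 and its receptor APLNR at 0.67, with SEMA3A at 0.58. Of 12 hypoxia targets 6 were higher and 1 lower, also in DESeq2, with SLC2A1 at 0.89, PFKFB4 at 0.58 and NDRG1 at -0.66.

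The single-cell libraries located these genes in cell classes. The Ctrl library held 11906 cells of 12494 barcodes after a filter of more than 500 genes (median 6358.5 UMIs a cell), and the TNF library 23160 cells (median 2599 UMIs), whose lowest cell had 1514 UMIs against 613 in Ctrl, and 82 barcodes occurred in both. Clustering, made without the 10 genes, gave 14 clusters. Classes were named from markers as podocyte-like (1381 Ctrl and 4408 TNF cells), proximal tubule-like, stromal-like, skeletal muscle-like, neuronal-like, neural progenitor or glial-like and proliferating-like, and clusters 4, 9, 10 and 13 kept no name. The classes rest on the alignment of the 2 libraries. Without it, 1 unnamed cluster held 14406 of the 23160 TNF cells and 196 Ctrl cells, and the largest podocyte-like cluster held 1384 Ctrl and 1267 TNF cells. At the finer resolution of 0.5, 1 podocyte-like cluster held 755 TNF cells and 1 Ctrl cell, so cells of a class partly sat in different clusters by library. Each condition was 1 library, so no test was made, and the 95% exact Poisson intervals below cover counting error only. UMIs were summed per class and expressed as CPM of the class total, which is not the scale of the bulk values.

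VEGFA was highest in podocyte-like cells of Ctrl. It stood at 627 CPM (614 to 640) in podocyte-like cells, 141 in cluster 13 and 88.9 in stromal-like cells, 7.05 times lower than in podocyte-like cells. The other classes followed at 55.5 (proximal tubule-like), 54.2 (proliferating-like), 46.7 (skeletal muscle-like), 39.2 (neuronal-like) and 27.5 CPM (neural progenitor or glial-like). Podocyte-like cells were 11.6% of the cells and held 66.9% of all VEGFA UMIs. Within them, the cluster led by DDN (cluster 2) reached 790 CPM and the cluster led by TESC and ITIH5 (cluster 11) 375 CPM. A VEGFA UMI was seen in 89.5% of podocyte-like and 18.5% of neuronal-like cells, at median depths of 5376 and 6440 UMIs.

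With TNFα, VEGFA was lower in podocyte-like cells and higher in most other classes. The podocyte-like level was 411 CPM, 0.656 times that of Ctrl (0.637 to 0.677), and both podocyte-like clusters were lower, at 473 and 233 CPM. Over all cells the ratio was 1.12, beside a podocyte-like share of cells of 19.0% in the TNF library, whose part was not tested. Bulk RNA of isolated spheroids went the other way at 24 h (log2 -0.30), and the cause of that difference from whole wells was not tested. In neuronal-like cells VEGFA went from 39.2 to 80.1 CPM while podocyte markers in the same cells went from 279 to 685 CPM, and in podocyte-like cells the marker sum went from 9600 to 5025 CPM. The part of free RNA in the values of the other classes was not tested. A VEGFA UMI was seen in 2645 of 4408 podocyte-like cells and in 22.5% of neuronal-like cells of this library, at median depths of 2591 and 2517 UMIs.

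VEGFB was spread over all classes, from 57.2 CPM in neuronal-like to 172 CPM in proximal tubule-like cells of Ctrl. VEGFC was highest in cluster 10 (16.8 CPM), led by SPRR2F, NPY, PLP2, AMHR2 and MBNL3, and in cluster 4 (11.6 CPM), led by GJA4, C2CD4B, ACTG2, SOX17 and ESM1, with overlapping intervals. The cluster 10 level came from 112 UMIs in 100 cells, and the cluster 4 level from 8 UMIs in 7 cells. With TNFα VEGFC stayed highest in cluster 10, at 12.6 CPM.

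ANGPT1 and ANGPT2 were highest in different populations in Ctrl, and stromal-like cells held both. ANGPT1 was highest in podocyte-like cells at 76.6 CPM, then in stromal-like cells at 40.6 CPM, and their intervals did not overlap. ANGPT2 was highest in cluster 4 and stromal-like cells, at 27.4 and 27.2 CPM with overlapping intervals, and lay at 6.12 CPM in podocyte-like cells. The cluster 4 level came from 19 UMIs in 6 of 470 cells, and the stromal-like level from 370 UMIs in 260 of 2477 cells. In the TNF library podocyte-like cells held the highest ANGPT2 level, 31.1 CPM, which was 5.08 times that of Ctrl (4.05 to 6.45). In the same cells ANGPT1 was 0.493 times its Ctrl level (0.447 to 0.543). In stromal-like cells both were lower, ANGPT1 at 0.341 times (0.291 to 0.399) and ANGPT2 at 0.459 times Ctrl (0.385 to 0.546). ANGPT2 was also higher in proximal tubule-like cells, from 3.35 to 9.59 CPM, and in skeletal muscle-like cells, from 3.89 to 10.9 CPM. Smaller rises were seen for the neuronal-like class (1.62 times, 1.18 to 2.20) and the glial or neural progenitor class (1.57 times, 1.13 to 2.17). Cluster 4 was lower (0.512 times, 0.291 to 0.932), and the interval of proliferating-like cells included no difference. The part of free RNA in these values was not tested. The podocyte-like ratios of both genes were recomputed under other clusterings chosen after seeing the data. That of ANGPT2 then ran from 4.87 to 6.78.

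KDR was not highest in any named class. In Ctrl it stood at 54.1 CPM in cluster 10 and 41.9 in cluster 4, with overlapping intervals, and at 16.5 in stromal-like cells. The cluster 10 level came from 361 UMIs in 249 of 840 cells, and the cluster 4 level from 29 UMIs in 12 of 470 cells. In the TNF library KDR was at 20.02, 9.37 and 6.21 CPM in the same populations, and over all cells 0.464 times Ctrl (0.410 to 0.525). FLT1 was highest in cluster 4 (24.6 CPM from 17 UMIs in 7 cells) and next in podocyte-like cells at 4.22 CPM, the latter 0.417 times as high with TNFα (0.263 to 0.650). TEK was at the edge of detection, with 34 UMIs in all of Ctrl and 19 in TNF, and reached at most 1.53 CPM in the classes and clusters. PECAM1 and CDH5 were highest in cluster 4, at 26.0 and 43.3 CPM in Ctrl and 6.36 and 4.68 CPM with TNFα, from 18, 30, 19 and 14 UMIs. Those UMIs came from 6 and 5 of the 470 Ctrl cells and 7 and 8 of the 1649 TNF cells in the cluster, so the level was that of a few cells. Most endothelial markers were highest in cluster 4 of Ctrl too, among them ECSCR (39.0 CPM), ROBO4 (34.7 CPM) and SOX18 (31.8 CPM). Others were not: EMCN and NOS3 were highest in stromal-like cells, CLDN5 and ETV2 in podocyte-like cells, and CLEC14A, VWF and TAL1 elsewhere. By the naming rule the best match of cluster 4 was mural, with 2 of 8 markers raised, so it kept no name. Cluster 4 was shallow, with a median of 984.5 UMIs a cell in Ctrl and 1714 in TNF. Its UMIs totalled 692393 in Ctrl and 2988899 in TNF. Over all cells FLT1 was 1.04 times Ctrl (0.799 to 1.35) and PECAM1 1.25 times (0.743 to 2.12), intervals that included no difference. In bulk spheroids at 24 h both genes lay below vehicle (log2 -0.70 and -0.28). CDH5 was 0.617 times Ctrl (0.391 to 0.961) over all cells.

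**Figure D4:**
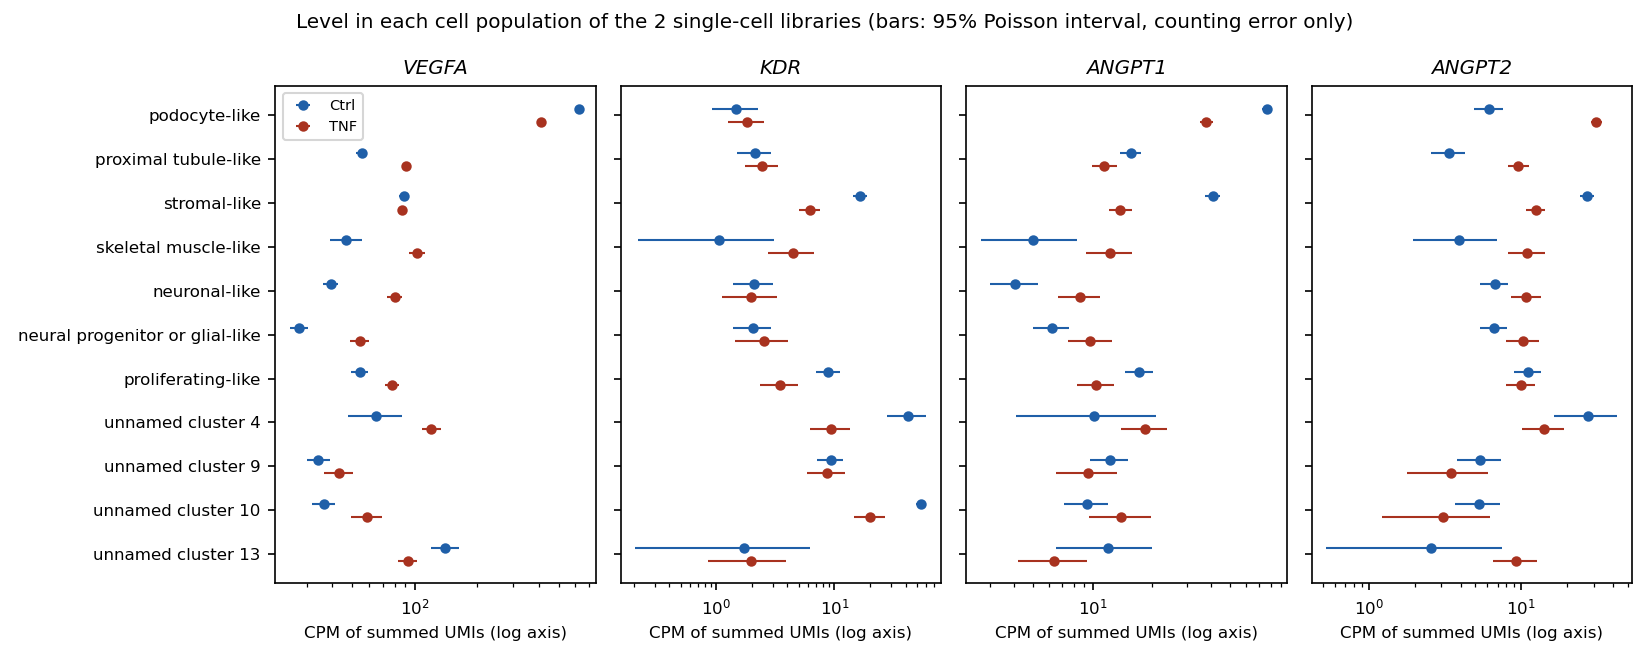
Level of VEGFA, KDR, ANGPT1 and ANGPT2 in each cell class and unnamed cluster of the Ctrl (blue) and TNF (red) single-cell libraries, as CPM of summed UMIs on a log axis with 95% Poisson intervals. VEGFA and ANGPT1 are highest in podocyte-like cells of both libraries, and ANGPT2 is highest there in the TNF library only.

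Few cells passed a gate on endothelial markers. A cell was counted as passing an endothelial gate where it held UMIs of at least 3 of 12 markers that include none of the 10 genes. In Ctrl 20 of 11906 cells passed (0.168%, exact binomial interval 0.103 to 0.259%) and in TNF 15 of 23160 (0.0648%, 0.0363 to 0.107%). Thinned to 1500 UMIs a cell, with 953 shallower Ctrl cells and 0 TNF cells left out, 4 Ctrl cells (0.0365%) and 6 TNF cells (0.0259%) passed, with overlapping intervals. Just outside the gate lay 104 and 70 cells with exactly 2 markers, and just inside it 15 and 6 with exactly 3. Gate cells were deep, at a median of 21685.5 UMIs in Ctrl and 9261 in TNF, and 0 of them reached the fixed doublet score of 0.25. The scoring method's own threshold marked 393 Ctrl and 0 TNF cells, so the score may miss doublets, also among gate cells. They lay in cluster 4 in 6 of 20 and 7 of 15 cases and were otherwise spread over several classes. Clustering gave larger groups than the gate. With only cells of more than 1000 genes, a cluster of 53 Ctrl and 388 TNF cells was named endothelial (4 of 12 markers raised). With doublets left out, a cluster of 420 Ctrl and 1554 TNF cells raised 2 of the 12 and kept no name.

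Most UMIs of both junction genes lay in these cells. Gate cells held 0.676% of all UMIs in Ctrl and 0.235% in TNF, yet 70.0% and 67.6% of PECAM1 UMIs and 67.8% and 54.5% of CDH5 UMIs. FLT1 followed with 18.9% and 15.7%, and KDR with 4.23% and 5.16%, so most KDR RNA lay outside the gate. TEK had 1 UMI in gate cells of each library (1.47 CPM in Ctrl and 4.66 in TNF). VEGFA stood at 0.863% (0.713 to 1.03%) in Ctrl, above the share of all UMIs, and at 0.111% (0.0620 to 0.183%) in TNF, below it. VEGFB lay at 0.886% (0.723 to 1.07%) in Ctrl, above that share, and at 0.273% (0.184 to 0.389%) in TNF. ANGPT2 also lay above it in Ctrl, at 1.66% (0.933 to 2.73%, 15 UMIs), with 0 UMIs in the TNF gate cells, and VEGFC lay above it in TNF, at 1.36% (0.441 to 3.13%, 5 UMIs). ANGPT1 lay below it in Ctrl, at 0.334% (0.144 to 0.658%), and had 0 UMIs in the TNF gate cells. These intervals treat each UMI as separate and leave out the spread between cells. The gate cells held from 827 to 125722 UMIs in Ctrl and from 2681 to 45990 in TNF, so a few deep cells can set a share. At least 2 of FLT1, KDR, TEK, PECAM1 and CDH5 were seen in 5 of 20 Ctrl and 9 of 15 TNF gate cells, and in 8 of 11886 and 4 of 23145 other cells. Their summed endothelial markers, which the gate used, reached 374 and 951 CPM, against 25.6 and 24.7 in other cells, and their leukocyte markers 1.47 and 0 CPM. Their summed mural markers stood at 1758 and 1724 CPM, against 384 and 641 in other cells, and their summed podocyte markers at 2718 CPM in Ctrl and 401 in TNF, against 1633 and 1565. Those are levels of pooled UMIs. As medians over cells, mural markers stood at 192 CPM in Ctrl and 359 in TNF, against 109 and 430 in other cells. The podocyte medians were 181 and 212 CPM, against 215 and 955. The part of RNA of these cell types in the gate cells was not tested.

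**Figure D5:**
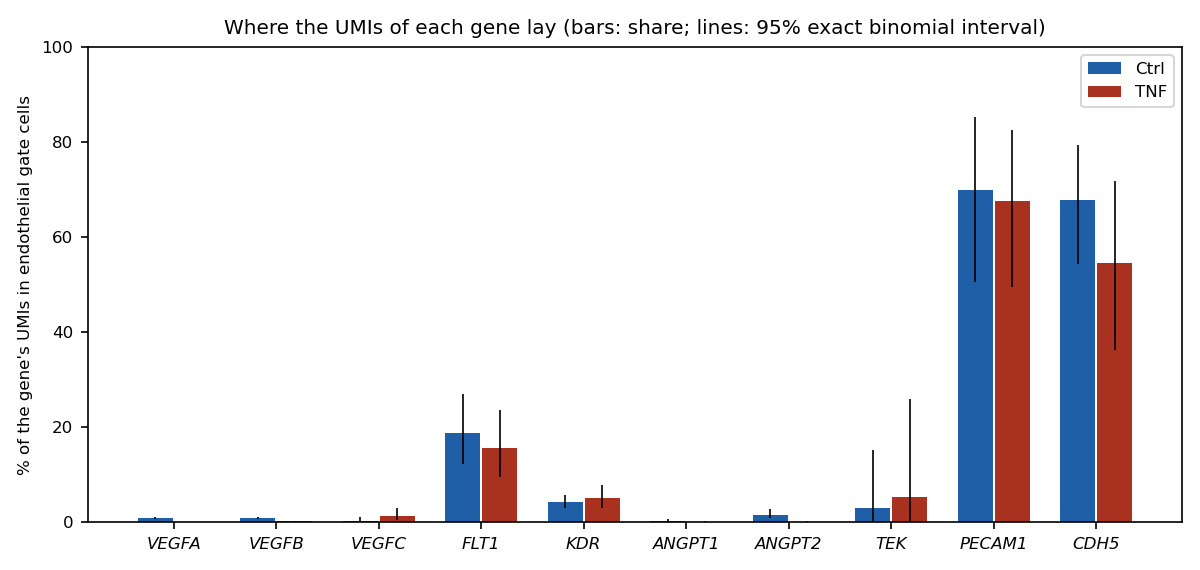
Share of each gene's UMIs that lay in cells passing the endothelial gate, in percent, for the Ctrl (blue bars) and TNF (red bars) libraries, with exact binomial intervals as lines. PECAM1 and CDH5 reach 54.5% or more in both libraries, FLT1 15.7% or more, and the 5 ligands at most 1.66%, in some cases above and in others below the share of all UMIs in these cells.

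In gate cells of the TNF library, PECAM1 lay at 107 CPM against 30.9 in Ctrl and FLT1 at 83.9 against 33.8, ratios of 3.47 (1.84 to 6.59) and 2.48 (1.26 to 4.80). KDR, at 88.6 against 54.4 CPM, and CDH5, at 83.9 against 58.8 CPM, had intervals that included no difference. In all other cells KDR was 0.458 times Ctrl (0.403 to 0.519). The gate held different mixtures in the 2 libraries. Of the 20 Ctrl cells 15 passed with exactly 3 markers, against 6 of the 15 TNF cells, and 4 and 8 cells held 5 or more. In Ctrl, 20 of 21 PECAM1 and 39 of 40 CDH5 UMIs lay in the 4 cells with 5 or more markers, for each gene in 3 of the 4. Among cells with 5 or more markers, PECAM1 stood at 115 CPM in Ctrl and 291 in TNF, and CDH5 at 224 and 208 CPM. The gate cells also differed in depth, and the part of the mixture and of depth in these ratios was not tested.

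The genes most like VEGFA across 28 points, 1 for each of the 14 clusters in each library, among 10485 genes, were FOXD1 (Pearson r = 0.971), MAGI2-AS3 (0.970), FRMD1 (0.966), CLIC5 (0.962) and NRIP2 (0.962). CLIC5 is one of the podocyte markers used to name the class. For KDR they included KLF2 (0.904), USP27X (0.847), CLIC4 (0.845) and TNFAIP8 (0.824). These correlations are over log2(CPM + 10) of clusters that share a library and its depth, and are given as a description.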

How the data were processed

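Total RNA of isolated kidney organoid spheroids was sequenced by the study (NEBNext Ultra II, paired ends). For the bulk tables the authors aligned reads to GRCh38 with STAR 2.7.8a, counted them per gene with HTSeq 0.11 (versions from the submitters' processing notes), normalised with voom in limma and removed some genes (by a cutoff that the labels and methods do not state), and the deposited values are log2(CPM + 1). Whole reads were recovered from 100% of these values (within 0.01 of a whole number), and each of the 3 tables was used on its own. The single-cell matrices hold UMI counts that the authors deposited as filtered matrices without normalisation; the submitters' notes name Cell Ranger 2.1.1 and the matrix headers a later version. The D25 NLW50 Ctrl sample was not analysed here. The authors' columns all mapped to samples (0 left without one).

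For set 2, limma 3.58.1 (R 4.3.3) was fitted to the deposited log2 values of all 27650 genes with 1 mean per day and a trended prior. For the TNFα set, treatment and time were terms over 21093 genes. P-values were adjusted by Benjamini-Hochberg over all genes of a table. edgeR 4.0.16 (quasi-likelihood) and DESeq2 1.42.0 were run on the recovered reads as alternatives, with centring on the median, no trend, no added 1, a filter on the mean, a replicate block and each library left out. On simulated data for set 2 D29 versus D21, limma called 90 of 100 genes changed by a log2 of 1 and 100 of 100 changed by 2, over 27650 genes. For the TNFα set it called 98 and 100 of 100 over 21093 genes.

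Cells with more than 500 genes were clustered with scikit-learn 1.9.0 and leidenalg 0.10.2 (Python 3.11.15, 30 principal components, resolution 0.25). Before that the libraries were aligned by the Harmony method, written anew in numpy 2.4.6. The 10 genes, the angiogenic and hypoxia lists and mitochondrial genes were left out of the 2869 variable genes. Classes were named from 3 or more raised markers. Doublets, scored by Scrublet in scanpy 1.11.5 (237 Ctrl and 390 TNF cells at a score of 0.25 or more), were kept. Scrublet's own threshold marked 393 Ctrl and 0 TNF cells, so the score was fixed by hand. UMIs of a class were summed, and intervals are 95% exact ones.

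All 10 genes are named in every table. From the other lists the called genes with the largest absolute log2 difference, up to 3 a list and comparison, are named, and for VEGFA and KDR the 5 genes with the highest correlation over clusters with at least 50 cells (1 of them is not reported here). Genes a sentence adds beyond that rule were chosen after their values were seen. The 10 genes and all lists were chosen with earlier results of these data known. Gene positions are from GENCODE v44 on GRCh38.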

Additional observations from a re-analysis of the deposited data

Results flagged for a closer look

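For several genes the single library of set 1 and both libraries of set 2 moved in opposite directions from D21. The difference between the sets was not tested, since set 1 has 1 library a day. At D25 the log2 difference in set 1 was 0.0106 for VEGFC against -0.18 in set 2, and -0.00281 for ANGPT2 against 0.62, values of set 1 that are close to no difference. FLT1 stood at -0.91 in set 1 against 0.61 in set 2, TEK at -0.33 against 0.79, and CDH5 at -0.20 against 1.17. At D29 TEK stood at -0.18 against 0.90, PECAM1 at -0.25 against 1.38 and CDH5 at -0.60 against 1.11. VEGFA was lower and KDR higher than at D21 in both sets and on both days. The D21 level of PECAM1 was 12.02 CPM in set 1 and 3.94 and 4.33 CPM in set 2, and that of TEK was 3.04 against 0.576 and 0.671 CPM. The 2 tables were normalised separately, each library to its own total reads, and the cause of the gap at D21 was not tested.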

How the results depend on the processing

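Over 459 values of single genes under the alternatives, 420 kept their direction or stayed uncalled on the same side of the threshold, 25 lost a call and 14 gained one. 10 of the uncalled values, all within 0.17 of 0 on the log2 scale, changed sign. Genes called at D25 against D21 numbered 1486, and 2252 with median centring, 2091 with a replicate block and 241 to 2231 when 1 library was left out (listed genes 1 to 6). At D29 against D21 there were 5081, 6056 with the block, and 2358 to 5417 without 1 library (listed 4 to 5). At D29 against D25 there were 574, against 1278 in DESeq2, 1336 in edgeR, 1122 with a mean of at least 1, 1233 with median centring, 209 with no trend, 1118 with the replicate block, and 0 to 2014 without 1 library. There 1 listed gene (FLT1) was called under DESeq2, edgeR, no added 1, a mean of at least 1, median centring and no trend, and 0 to 1 without 1 library. With TNFα 4061 genes became 2168 in DESeq2 (2 listed) and 1310 without the time term (1 listed). Deviations from the day means of same-numbered libraries correlated at 0.142, 0.0753 and 0.270, all positive. The main model did not use the numbers as pairs. With them as a block more genes were called in each comparison, and no call of a listed gene changed (5, 5 and 0). The causes of these changes were not tested.

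In single cells, the podocyte-like VEGFA level in Ctrl was 593 CPM without alignment, its ratio to the next class 7.76 with doublets left out, and its TNF to Ctrl ratio 0.828 without alignment and 0.636 without doublets. Without alignment the added ANGPT2 and ANGPT1 ratios were 6.78 and 0.582. The gate share was 1.04% and 0.367% at 2 or more markers, 0.0420% and 0.0389% at 4 or more, and 0.0365% and 0.0259% at equal depth. Low UMI totals limit TEK, PECAM1 and CDH5, and 1 library a condition allows no test.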
